A study of Homo sapiens with 8 samples.

Results

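The mitotic and G2/M genes described here are 48 human genes that act between the end of DNA replication and the division of the cell. They were chosen by name, without a cut on a measured value, but with earlier results of these data known. A member is a gene whose symbol equals the gene name that the array annotation gives to a probe that is not a control. They make up 48 of the 43317 gene names on the array. All 48 were well above background by the flag of the scanner software, in 1 colour channel or both, on all 8 arrays, so none was lost to a filter on dim signals. In 11 members several probes carried the name, and the probe with the highest mean intensity stood for the gene. The accession of the chosen probe was found in the RefSeq gene table for 45 members, and the table gave the same symbol for all 45.

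Entry into mitosis is driven by cyclin-dependent kinase 1 (CDK1) bound to A and B type cyclins, which the CDC25 phosphatases switch on. Chromosomes then attach to spindle microtubules through kinetochores, the spindle checkpoint holds the cell until attachment is complete, and the anaphase promoting complex with CDC20 releases it. Transcripts of these genes rise late in the cycle under FOXM1, MYBL2 and MuvB complexes. Their levels in a culture of cancer cells are commonly read as a sign of how many cells are cycling. The members were therefore ordered below by 11 roles, from the cyclins to chromosome structure.

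Cell lines were profiled on 8 Agilent 2-colour arrays of 1 slide, without dye swaps. A498 and 786-O come from renal cell carcinoma, MDA-MB-231 from breast cancer and HCT116 from colorectal cancer. On each array the Cy5 channel held total RNA of cells transfected by Lipofectamine RNAiMAX, and the Cy3 channel held total RNA of mock cells of the same line, which the labels list as without transfection. The transfected RNAs were miR-139-5p in A498, miR-139-3p in A498, miR-139-5p in 786-O, miR-139-3p in 786-O, si-GINS1_1 and si-GINS1_2 in MDA-MB-231 (called siRNA 1 and siRNA 2 below), miR-490-5p in HCT116 and miR-490-3p in HCT116, with 1 array each. Against mock, an effect of the lipid reagent and an effect of the RNA it carried cannot be told apart. Time after transfection is not given in the labels, and each array is a single culture, so no spread within a transfection is known. All ratios below are log2 of Cy5 over Cy3, that is, transfected over mock, after background correction and within-array loess normalization. A value of 1 is a doubling against mock and a value of -1 is its reverse.

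Precision is limited by the number of arrays. Between 24983 and 29688 probes per array were well above background. In the mock channel, the renal markers PAX8, PAX2, CDH6 and LHX1 were well above background in A498 and in 786-O. PAX8 and LHX1 were so in all 4 lines, however, and PAX2 in HCT116 too. Of 5 colorectal markers HCT116 showed CDX2 and CDX1, while LGALS4, VIL1 and CDH17 were not well above background there. CDX1 passed in all 4 lines. Of 5 breast markers MDA-MB-231 showed 4, without KRT5, but 786-O also showed 4, and A498 and HCT116 showed 3 each. The mesenchymal genes VIM and ZEB1 passed in all 4 lines, CDH1 in MDA-MB-231 and HCT116 and EPCAM in all 4. Of the other lists, 2 or 3 of 3 fibroblast markers and 1 or 2 of 3 immune markers passed the same flag in each line (CD68 was not on the array), so the flag separates cell types poorly.

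GINS1, the target of both siRNAs, encodes a subunit of the replicative helicase and is not a member. Its log2 ratio was -1.31 with siRNA 1 and -1.92 with siRNA 2, which leaves 40.4% and 26.4% of the mock level. The mean was -1.61 ± 0.43 (SD, n = 2), with an SE of 0.16 and a limma adjusted p of 0.0181. On the other 6 arrays GINS1 lay between -0.11 and 0.55. Both siRNA arrays therefore carry a lowered target, and siRNA 2 the lower one.

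For the members as a group, the siRNA 2 array stood apart from the other 7. Their median log2 ratio was -0.72 with siRNA 2, and 46 of 48 members were below 0 there, against 48.9% of all 21369 genes measured on both siRNA arrays. With siRNA 1 the median was 0.21, and 33 of 48 were above 0, against 52.2% of all genes. With each probe's mean over the 6 arrays without an siRNA subtracted, a correction meant for dye bias, the siRNA 1 median was 0.077. That mean also holds any response of the members on those arrays, and without dye swaps the parts cannot be told apart. On the miR-139 arrays the medians were 0.13 and 0.11 in A498 (miR-139-5p and miR-139-3p) and -0.06 and -0.04 in 786-O, where median centring turned the value for miR-139-3p to 0.11. On the HCT116 arrays the medians were 0.26 for the 5p strand and 0.28 for the 3p strand of miR-490. The median of all measured genes lay between 0.00 and 0.01 on every array after loess, so these values are close to shifts against the typical gene. Median centring of the arrays, without loess, moved the median of all genes by more than 0.1 on the siRNA 1 array, to 0.18, and on the A498 miR-139-5p array, to 0.14; relative to it the members then lay at 0.52 with siRNA 1 and 0.25 with miR-139-5p in A498. In bulk RNA, fewer dividing cells and less transcript per dividing cell cannot be told apart.

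**Figure D1:**
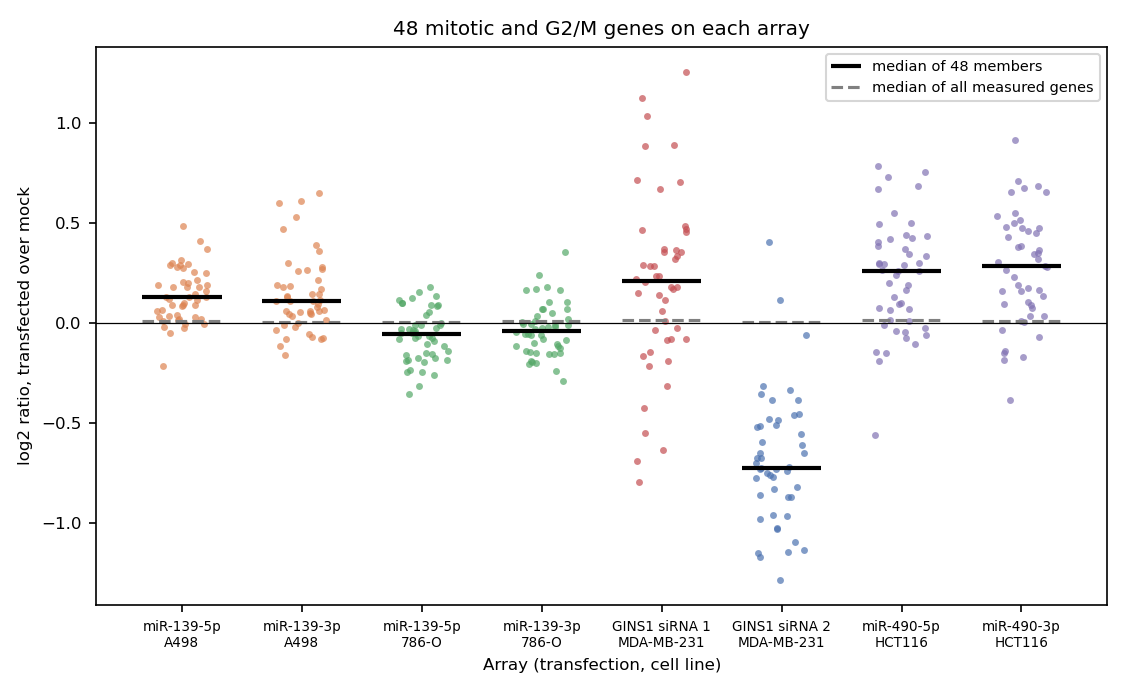
Log2 ratio of transfected over mock (vertical axis) for the 48 mitotic and G2/M genes on each of the 8 arrays (horizontal axis). Each point is 1 gene on 1 array, the solid bar is the median of the 48 genes and the dashed bar the median of all measured genes. The siRNA 2 points lie almost wholly below 0 with a median of -0.72, while those of the other MDA-MB-231 array, siRNA 1, spread from -0.80 to 1.25 around a median of 0.21.

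The comparison of siRNA 1 with siRNA 2 asks whether a pair of reagents against the same gene move the mitotic program alike. They did not give the same values. The difference siRNA 1 minus siRNA 2, in which a probe's dye bias cancels, had a median of 0.83 over the members and of 0.00 over all measured genes. It was above 0 in 44 of 48 members, against 50.4% of all genes. It was at or above 1 in 18 of 48 members, against 2.81% of all genes, and at or below -1 in 0 of 48, against 2.54%. In 32 members siRNA 1 was above 0 and siRNA 2 below 0, which held for 21.5% of all genes. With 1 array per siRNA there is no test of these differences. The nearest measure of spread is the pair of mock channels of MDA-MB-231, and whether the pair shared its RNA is not given. It covers Cy3 alone, while the siRNA difference also holds the spread of Cy5 and of the transfected cultures. The mock channels differed over the members with an SD of 0.09 and by at most 0.25 (MYBL2). In size, 43 of 48 members had a siRNA difference larger than that. How many of all genes did was not counted, so this count is not read as a trait of the members. Median centring raised the members at or above 1 from 18 to 31, against 5.26% of all genes. The scanner log ratio gave 20, against 8.69%. The other settings run for this count gave 18 to 20, against 1.39% to 4.46% where the share was counted. The filter settings and dye bias removal could not change the count of members.

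**Figure D2:**
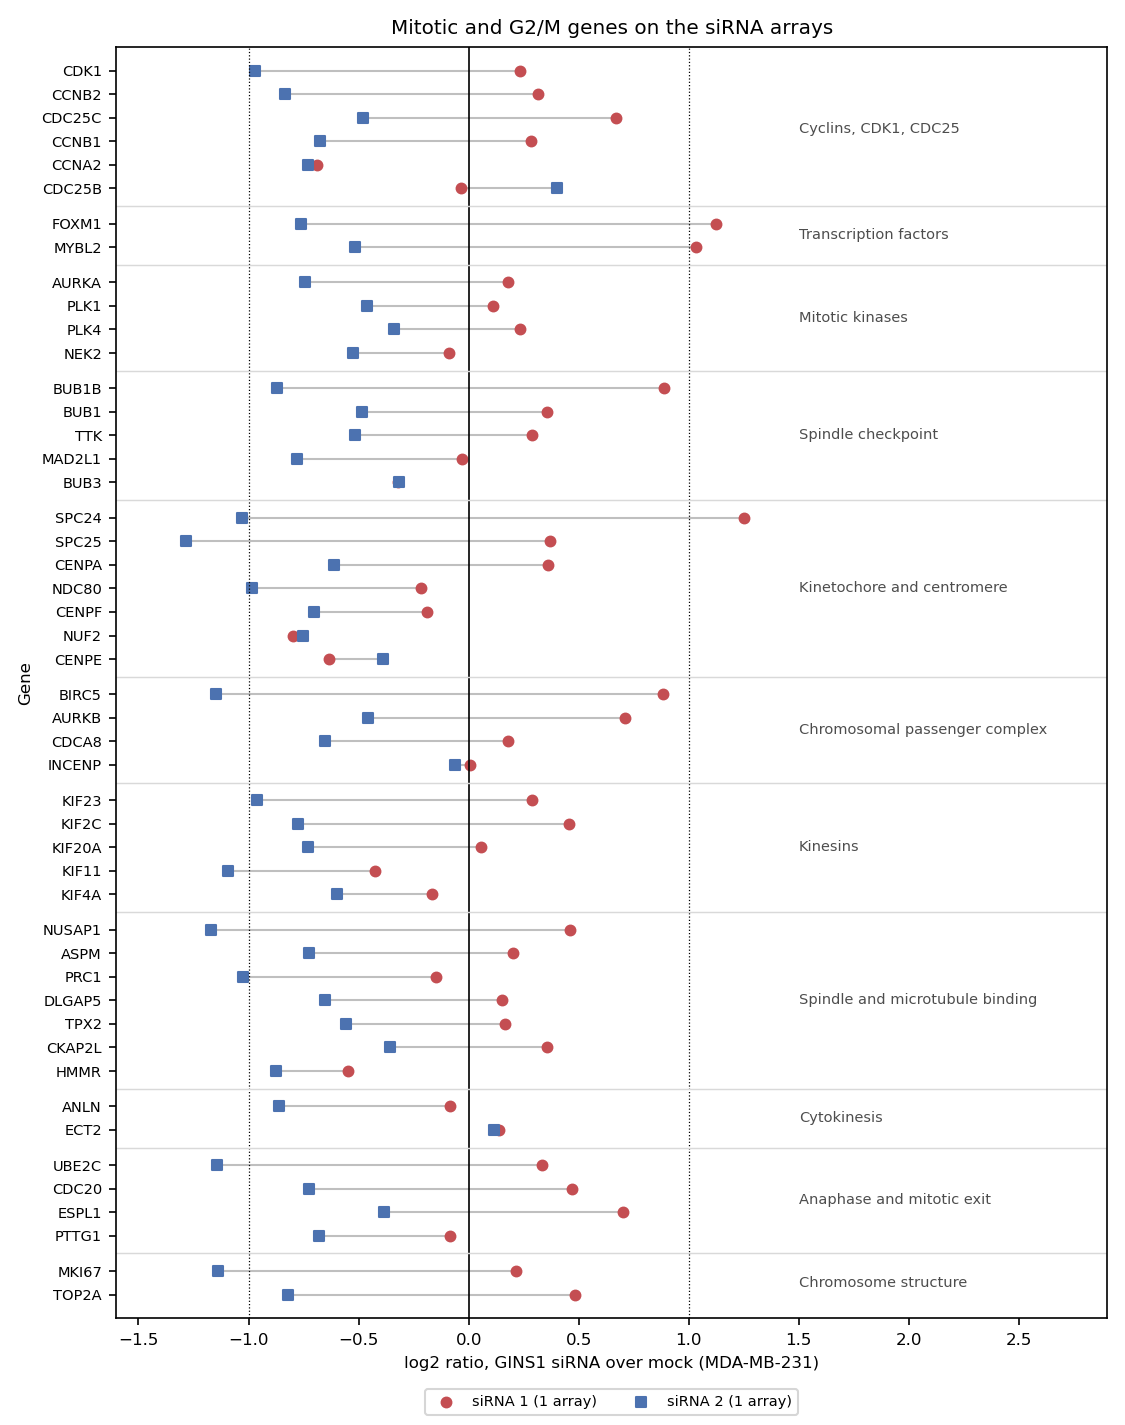
Log2 ratio over mock in MDA-MB-231 (horizontal axis) for each mitotic and G2/M gene (vertical axis, grouped by role) with siRNA 1 (circles) and siRNA 2 (squares), 1 array each, joined by a grey line. Dotted lines mark -1 and 1. Circles lie to the right of squares for 44 genes, with the widest gap in SPC24 (2.28) and almost none in NUF2, CCNA2, BUB3 and ECT2.

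The widest gaps were those of SPC24 and BIRC5. SPC24, a subunit of the NDC80 kinetochore complex, lay at 1.25 with siRNA 1 and -1.03 with siRNA 2, a difference of 2.28 or 4.86-fold. Its second, dimmer probe gave 0.56 and -0.38, so the direction was the same and the gap smaller, 0.94. BIRC5 (survivin), the chromosomal passenger subunit that also restrains apoptosis, lay at 0.88 and -1.15, a 4.09-fold difference. These genes passed a log2 ratio of 1 in size with at least 1 of the siRNAs, in opposite directions.

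The transcription factors showed the same arrangement. FOXM1, which drives late cell cycle transcription, lay at 1.12 with siRNA 1 and -0.76 with siRNA 2, and MYBL2 (B-Myb), which joins MuvB to start that program, lay at 1.03 and -0.52. Together with SPC24 they were the 3 members at or above 1 with siRNA 1, a level that 1.01% of all genes reached. In all, 8 members were at or below -1 with siRNA 2, which 1.32% of all genes were: SPC25 at -1.28, NUSAP1 at -1.17, BIRC5 at -1.15, UBE2C at -1.14, MKI67 at -1.14, KIF11 at -1.10, SPC24 at -1.03 and PRC1 at -1.03. None of these 8 was as low with siRNA 1, where KIF11 was the lowest of them at -0.43.

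Among the cyclins and their kinase, CDK1 lay at 0.23 with siRNA 1 and -0.97 with siRNA 2. Cyclin B2 (CCNB2) lay at 0.32 and -0.83 and cyclin B1 (CCNB1) at 0.28 and -0.68. CDC25C, a phosphatase that activates CDK1, lay at 0.67 and -0.48. Cyclin A2 (CCNA2), which acts from S phase into early mitosis, broke the pattern with -0.69 and -0.73, a difference of 0.04. CDC25B went the other way, at -0.03 and 0.40, and its difference of -0.44 was the lowest of all members. A second CDK1 probe, the dimmest of those examined for the members at a mean log2 intensity of 5.86, gave only 0.08 and -0.07.

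In the spindle checkpoint, the kinase-like protein BUB1B (BubR1) lay at 0.89 and -0.87, the kinase BUB1 at 0.35 and -0.49 and the kinase TTK (MPS1) at 0.29 and -0.51. MAD2L1, which inhibits CDC20, lay at -0.03 and -0.78. BUB3, the partner of BUB1 and BUB1B, lay at -0.32 with each siRNA, and its second probe gave -0.33 and 0.02. The checkpoint genes thus ranged from a difference of 1.76 in BUB1B to 0.00 in BUB3.

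The kinetochore genes varied most among themselves. SPC25, the partner of SPC24, lay at 0.37 and -1.28, while NDC80 and NUF2, the other subunits of the same complex, lay at -0.21 and -0.98 and at -0.80 and -0.75. The subunits of 1 complex therefore had differences of 2.28, 1.65, 0.77 and -0.05. CENPA, the centromeric histone, lay at 0.36 and -0.61, CENPF at -0.19 and -0.70, and the kinesin CENPE at -0.64 and -0.39. CENPE, NUF2, BUB3 and CDC25B were the 4 members with a difference below 0.

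The chromosomal passenger complex corrects faulty attachments. Its kinase AURKB lay at 0.71 with siRNA 1 and -0.46 with siRNA 2, CDCA8 (borealin) at 0.18 and -0.65 and the scaffold INCENP at 0.01 and -0.06. INCENP was near 0 with both siRNAs, unlike BIRC5 of the same complex. Of the 4 mitotic kinases grouped apart, AURKA lay at 0.18 and -0.74, PLK1 at 0.11 and -0.46, PLK4, which duplicates centrioles, at 0.24 and -0.34, and NEK2, which separates centrosomes, at -0.09 and -0.52. None of these 4 reached a difference of 1.

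All 5 kinesins were higher with siRNA 1. The largest differences were 1.25 in KIF23, a subunit of centralspindlin at the midzone (0.29 and -0.96), and 1.23 in KIF2C, which depolymerises microtubules at centromeres (0.46 and -0.77). KIF20A lay at 0.06 and -0.73, KIF4A at -0.17 and -0.60, and KIF11 (Eg5), which pushes spindle poles apart, at -0.43 and -1.10. The 7 spindle and microtubule binding proteins were likewise all higher with siRNA 1, by 0.32 (HMMR) to 1.63 (NUSAP1). NUSAP1, which bundles spindle microtubules, lay at 0.46 and -1.17. PRC1, which bundles the midzone, lay at -0.15 and -1.03, ASPM at 0.20 and -0.73, TPX2 at 0.17 and -0.56, DLGAP5 (HURP) at 0.15 and -0.65, CKAP2L at 0.35 and -0.36, and HMMR at -0.55 and -0.87. HMMR and PRC1 were the members of this role below 0 with both siRNAs.

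Of the genes of anaphase and mitotic exit, UBE2C, a ubiquitin-conjugating enzyme of the anaphase promoting complex, had the largest difference, 1.48 (0.33 and -1.14). CDC20, the activator of that complex, lay at 0.47 and -0.72, separase (ESPL1) at 0.70 and -0.39 and securin (PTTG1) at -0.08 and -0.68. For chromosome structure, MKI67 (Ki-67) lay at 0.22 and -1.14, and 2 further probes of it gave differences of 0.73 and 1.76. TOP2A, which untangles chromosomes, lay at 0.48 and -0.82. In cytokinesis anillin (ANLN) lay at -0.08 and -0.86, and ECT2, the activator of RhoA at the cleavage furrow, at 0.14 and 0.11. ECT2 was the only member besides CDC25B that lay above 0 with siRNA 2.

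Over both siRNAs against mock, the test asks which members moved together. Of the 48 members 4 fell and 0 rose, while 3.78% of all 21362 genes tested fell and 3.49% rose. NUF2 had a mean of -0.77 ± 0.03 (SD, n = 2; limma adjusted p 0.0217), CCNA2 one of -0.71 ± 0.03 (SD, n = 2; limma adjusted p 0.0155), CENPE one of -0.51 ± 0.18 (SD, n = 2; limma adjusted p 0.0410) and BUB3 one of -0.32 ± 0.00 (SD, n = 2; limma adjusted p 0.0433). These are genes for which the siRNAs differed little, and the other 44 missed the threshold. At an unadjusted p under 0.05, 10 members were lower and 0 higher, against 12.8% and 13.5% of all genes. The count of 4 depends on a spread pooled from the siRNA pair and from A498 against 786-O within each miR-139 strand. It became 0 with the scanner log ratio, 0 in a fit of the si-GINS1 arrays alone and 0 when the prior was robust and followed intensity. With median centring it was 1, and BUB3 then lay at 0.14. The BUB3 call was also lost without background correction (limma adjusted p 0.0692), with an offset of 10 (0.0881) and with the median over probes (0.0972), and the CENPE call without the filter on dim probes (0.0580). Without the siRNA 1 array 40 members were called lower and 1 higher, against 12.6% and 11.5% of all genes. Without the siRNA 2 array 4 were called lower and 13 higher, against 15% and 17.9%. Both counts rest on the spread between A498 and 786-O alone, which the lone MDA-MB-231 array is assumed to share. A dye bias of a probe and the spread of the mock are not removed from these values.

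The cell cycle genes outside the list were set beside the members with the same difference. Of 46 other G2/M genes 43 had a higher log2 ratio with siRNA 1, with a median difference of 1.03, and 24 were at or above 1. The largest were CENPM at 2.13, PKMYT1, a kinase that inhibits CDK1, at 2.12, and CENPN at 2.07. The 27 G1/S genes were all higher with siRNA 1, with a median of 1.22 and 17 at or above 1, led by E2F2 at 2.44, CDC45 at 2.38 and UHRF1 at 2.36. Both lists thus ran in the direction of the members, and differences between lists were not tested.

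The remaining lists had smaller medians. The 13 genes of condensin and cohesin had a median difference of 0.46, the 10 genes of DREAM and MuvB, which regulate the members' promoters, 0.51, and the 13 subunits of the anaphase promoting complex 0.22. The 6 p53 targets that restrain the cycle had a median of 0.24, and CDKN1A (p21) lay at 0.00 with siRNA 1 and 0.01 with siRNA 2. Over both siRNAs limma called 3 of the other G2/M genes lower (WEE1 at -0.73, CKAP2 at -0.66 and DSN1 at -0.43), SMC4 of condensin lower at -1.16 and RBBP4 of MuvB lower at -1.02. It called LIN37 of MuvB higher at 0.39 and GADD45A, a p53 target, higher at 0.70. None of the G1/S or anaphase promoting complex genes was called.

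**Figure D3:**
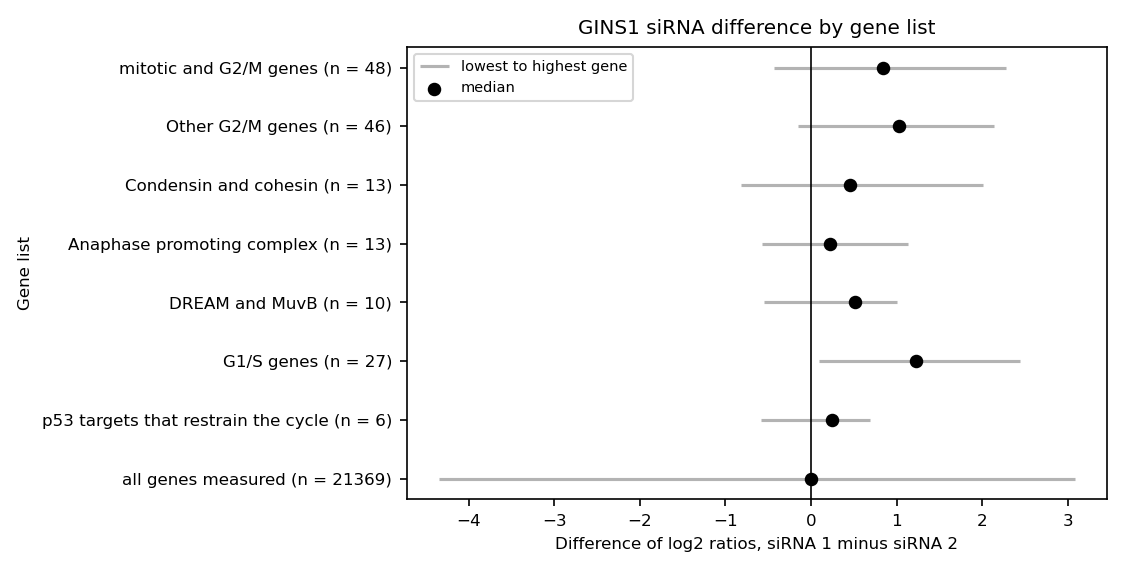
Difference of log2 ratios, siRNA 1 minus siRNA 2 (horizontal axis), for the mitotic and G2/M genes, the other cell cycle lists and all measured genes (vertical axis, with the number of genes). Dots are medians and lines run from the lowest to the highest gene. Medians are 0.83 for the mitotic and G2/M genes and 1.22 for the G1/S genes, against 0.00 for all measured genes.

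Promoters of these genes are known for 2 short elements, the cell cycle homology region (CHR), which MuvB complexes contact, and the CCAAT box, which NF-Y binds. Both were searched on both strands, the CHR as TTTGAA or TTCGAA, in the RefSeq promoters of build GRCh38.p14, which run from 250 bases before to 50 after a start. The table held promoters for 41 members; TTK, AURKA, BUB3, BIRC5, TPX2, FOXM1 and UBE2C were not matched. For 7 of the 41 the table lists several starts, and the first was taken. A CHR match was found in 29 of 41 members and in 16.6% of all 27305 genes in the table. A CCAAT match was found in 31 of 41 and in 35.7% of all genes, at least 2 CCAAT matches in 21 of 41 and in 11.3%, and both elements in 24 of 41 and in 6.58%. A match is a description of the letters and not of a site in use.

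The 8 stretches that follow show members with wide and with narrow siRNA differences, and CDC25B, which had the lowest. They run from 120 bases before to 30 after the start, read 5′ to 3′ on the gene's strand. Capitals mark each CHR or CCAAT match, in either orientation.
SPC25 (chr2:168890401-168890550, minus strand): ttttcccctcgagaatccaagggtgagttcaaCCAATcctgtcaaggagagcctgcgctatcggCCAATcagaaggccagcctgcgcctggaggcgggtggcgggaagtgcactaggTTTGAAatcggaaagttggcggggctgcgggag
BUB1B (chr15:40160949-40161098, plus strand): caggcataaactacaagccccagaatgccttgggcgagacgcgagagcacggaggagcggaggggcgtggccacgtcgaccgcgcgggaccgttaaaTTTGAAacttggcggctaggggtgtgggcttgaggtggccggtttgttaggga
NUSAP1 (chr15:41332761-41332910, plus strand): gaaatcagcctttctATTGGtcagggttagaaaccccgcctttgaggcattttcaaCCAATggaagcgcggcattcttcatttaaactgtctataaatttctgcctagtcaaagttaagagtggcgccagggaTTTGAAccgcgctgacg
SPC24 (chr19:11155753-11155902, minus strand): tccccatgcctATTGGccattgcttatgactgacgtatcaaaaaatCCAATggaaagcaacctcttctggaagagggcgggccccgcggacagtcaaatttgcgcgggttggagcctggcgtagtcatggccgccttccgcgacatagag
MYBL2 (chr20:43666994-43667143, plus strand): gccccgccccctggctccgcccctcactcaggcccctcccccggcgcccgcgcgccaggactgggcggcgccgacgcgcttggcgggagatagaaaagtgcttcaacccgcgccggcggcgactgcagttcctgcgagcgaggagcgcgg
NUF2 (chr1:163321834-163321983, plus strand): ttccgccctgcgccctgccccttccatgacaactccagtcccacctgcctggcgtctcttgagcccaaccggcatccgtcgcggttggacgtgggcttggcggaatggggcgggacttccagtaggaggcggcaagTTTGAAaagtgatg
CCNA2 (chr4:121823854-121824003, minus strand): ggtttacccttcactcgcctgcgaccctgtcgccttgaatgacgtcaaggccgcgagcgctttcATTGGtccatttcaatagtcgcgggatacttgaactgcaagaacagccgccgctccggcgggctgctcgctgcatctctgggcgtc
CDC25B (chr20:3786831-3786980, plus strand): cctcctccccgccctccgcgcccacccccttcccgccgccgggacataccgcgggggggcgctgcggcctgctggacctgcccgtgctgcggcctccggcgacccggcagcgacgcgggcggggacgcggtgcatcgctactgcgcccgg

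Members with wide siRNA differences included promoters with and without a match. SPC25 (difference 1.65) holds 1 CHR and 2 CCAAT matches in the stretch shown, BUB1B (1.76) a CHR alone, SPC24 (2.28) CCAAT matches alone and MYBL2 (1.55) no match. Of the members with differences near 0, NUF2 holds a CHR and CCNA2 a CCAAT box. ECT2 (0.03) and INCENP (0.07), which are not shown, hold both elements. CDC25B, with the lowest difference (-0.44), holds no match. The median difference was 0.83 in the 29 members with a CHR match and 0.87 in the 12 without a match. It was 0.84 in the 31 with a CCAAT match and 0.77 in the 10 without. Other spellings of the CHR were not searched, so members without a match may still hold such an element.

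On the renal arrays the question is whether the mitotic genes answer to miR-139 alike in A498 and 786-O. The strands of the duplex share no seed, the bases 2 to 8 that pair with targets, which are in capitals in the RefSeq sequences here.
miR-139-5p: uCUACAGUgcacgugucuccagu
miR-139-3p: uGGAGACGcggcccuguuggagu

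Each line had 1 array per strand, so the spread within a line is a spread between strands. In A498 both arrays were above 0 for 31 of 48 members, against 30.3% of all 17490 genes tested. In 786-O both were below 0 for 30 of 48, against 30.6%. Both A498 arrays lay above both 786-O arrays in 36 of 48 members, which held for 18.1% of all genes, and 20 of the 36 had both A498 arrays above 0 and both 786-O arrays below 0, against 5.04%. With median centring these counts were 32 (against 29.9% of all genes) and 6 (against 4.56%), and 38 of 48 members then lay above 0 on the 786-O array of miR-139-3p. The reverse order, both A498 arrays below both 786-O arrays, held for 17.7% of all genes and for 1 member, MKI67 (0.03 and 0.00 in A498, 0.10 and 0.10 in 786-O).

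The differences were small. Their median was 0.20 over the members and 0.00 over all genes, and the median SD between strands within a line was 0.08 over the members. The contrast A498 minus 786-O in limma called 0 of 48 members and 0% of all genes at an adjusted p under 0.05, and adjusted p over the members ran from 0.712 to 0.969. At an unadjusted p under 0.05, 23 of 48 members were higher in A498 and 0 lower, against 2.74% and 3.25% of all genes, and 1049 genes passed in all. The fit has 2 residual degrees of freedom, and simulated differences of 0.5 were recovered in 22% of genes and of 1 in 68%. Left without its miR-139-5p array, A498 gave 25 members called higher and 0 lower, against 6.11% and 7.91% of all genes. Left without its miR-139-3p array it gave 15 higher and 0 lower, against 4.34% and 4.65%. In these fits a lone array is assumed to vary like the 786-O arrays, and without either 786-O array the count stayed 0. Against mock, limma called 0 members in A498, where 0.0743% of all genes were called, and 0 in 786-O, where 0.0343% were. At an unadjusted p under 0.05 these tests passed 15 members in A498, all higher than mock, against 8.81% of all genes higher and 7.91% lower. In 786-O they passed 3 members higher and 11 lower, against 4.85% and 3.33%.

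**Figure D4:**
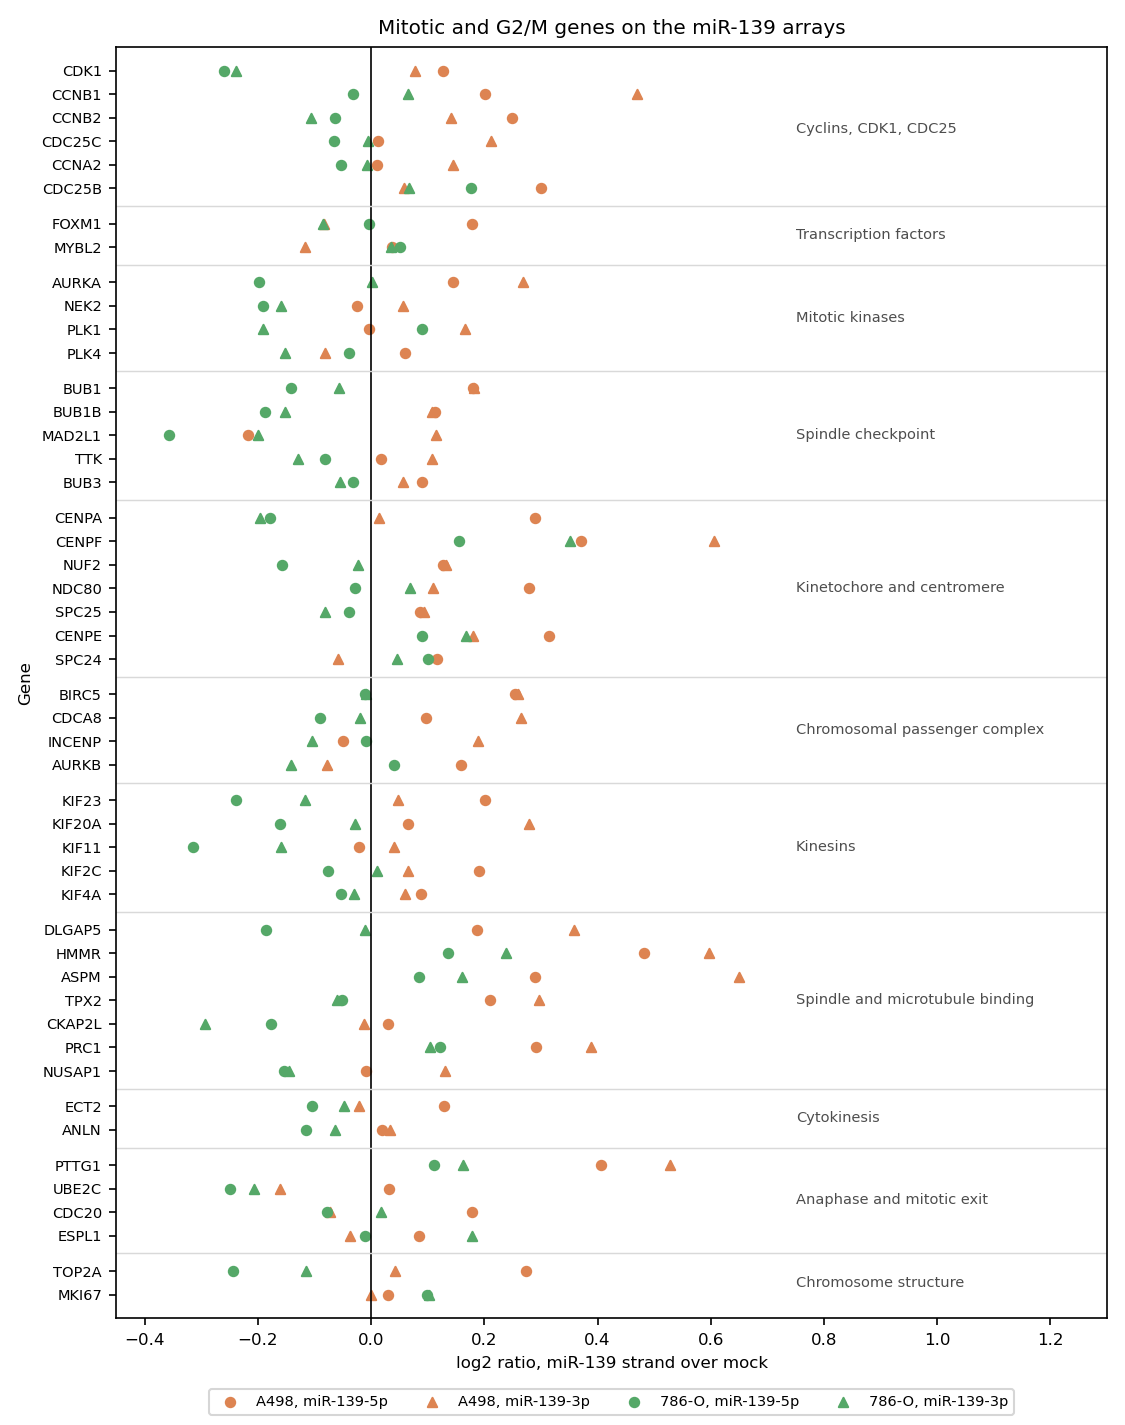
Log2 ratio over mock on the 4 miR-139 arrays (horizontal axis) for each mitotic and G2/M gene (vertical axis, grouped by role). Colours are the cell lines, circles miR-139-5p and triangles miR-139-3p, 1 array each. Both A498 points lie to the right of both 786-O points in 36 of 48 genes, and most values are within 0.3 of 0.

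By role, the spindle and microtubule binding proteins were furthest apart. Both A498 arrays lay above both 786-O arrays in all 7 of them, and the median difference was 0.31. DLGAP5, which stabilises spindle microtubules, had the largest difference of any member. In A498 it lay at 0.19 (5p) and 0.36 (3p). The 786-O values were -0.19 and -0.01, which makes a difference of 0.37 (SE 0.10). HMMR, the hyaluronan receptor that also acts at spindle poles, lay above 0 in both lines, at 0.48 and 0.60 in A498 and 0.14 and 0.24 in 786-O. ASPM, a spindle pole protein, lay at 0.29 and 0.65 against 0.08 and 0.16. For HMMR and ASPM the lines thus differed in size and not in side.

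Of the 6 genes of the role that holds the cyclins, CDK1 and the CDC25 phosphatases, 5 did not overlap between lines, and CDC25B did. For CDK1 the A498 values were 0.13 and 0.08 and the 786-O values -0.26 and -0.24, a difference of 0.35 (SE 0.06), with the strands close together in each line. CENPA had 0.29 and 0.01 against -0.18 and -0.20, and TOP2A 0.27 and 0.04 against -0.24 and -0.12. The strands of CENPA differed more in A498 (SD 0.19, n = 2) than in 786-O (SD 0.01, n = 2). The limma adjusted p of DLGAP5, HMMR, ASPM, CDK1, CENPA and TOP2A lay between 0.712 and 0.830, so none of these differences passed the threshold.

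The remaining roles differed in how many members held this order. All 5 kinesins, 6 of 7 kinetochore and centromere genes and 4 of 5 checkpoint genes had both A498 arrays above both 786-O arrays, as had both cytokinesis genes. So had 2 of 4 mitotic kinases, 2 of 4 passenger complex genes and 2 of 4 genes of anaphase and mitotic exit. Of the chromosome structure genes TOP2A held it and MKI67 the reverse. The transcription factors FOXM1 and MYBL2 overlapped. FOXM1 had 0.18 and -0.08 in A498 against 0.00 and -0.08 in 786-O, and MYBL2 had 0.04 and -0.12 against 0.05 and 0.03. Of the 3 members that were widest apart between the siRNAs, SPC24 and FOXM1 overlapped between the renal lines and BIRC5 did not (0.25 and 0.26 against -0.01 and -0.01).

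For the other lists, both A498 arrays lay above both 786-O arrays in 17 of 44 other G2/M genes and in 5 of 12 genes of condensin and cohesin. They did so in 5 of 27 G1/S genes, 2 of 6 p53 targets and 2 of 12 anaphase promoting complex genes. The order held in 1 of 10 DREAM and MuvB genes, and in 18.1% of all genes. The reverse order held for 11 of the 27 G1/S genes, against 17.7% of all genes. The median difference was 0.20 in the members, 0.17 in the p53 targets, 0.08 in the other G2/M genes and 0.07 in condensin and cohesin. It was 0.01 in DREAM and MuvB, 0.00 in the anaphase promoting complex and -0.04 in the G1/S genes. Differences between lists were not tested here either.

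The mock cells themselves differed between the lines. After quantile normalization of the Cy3 channels, all 48 members had a lower mock intensity in A498 than in 786-O, against 54.1% of all genes, and 35 were at least 1 log2 unit lower, against 4.83% of all genes. The median difference in log2 intensity was -1.37 over the members and -0.03 over all genes, and it ran from -2.84 in DLGAP5 to 0.00 in ESPL1. The kinesins had the lowest median of the roles, -1.99, and the mitotic kinases and cytokinesis genes were nearer, at -0.77 and -0.66. The G1/S genes had a median of -0.81, with 24 of 27 lower in A498, and the 6 p53 targets one of 1.46, all higher in A498. The pair of mock channels within a line differed over the members with an SD of 0.10 in A498 and 0.07 in 786-O, and the labels do not say whether a pair shared its RNA, so no test was run. The mock channel is also the denominator of each line's ratios, and its part in the line difference was not tested.

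**Figure D5:**
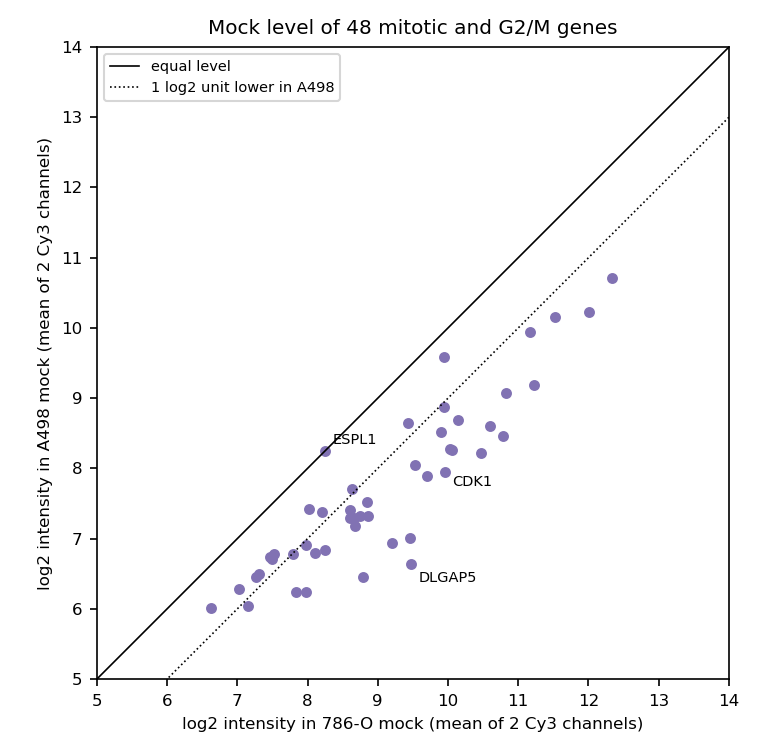
Log2 intensity of the 48 mitotic and G2/M genes in mock cells of 786-O (horizontal axis) and A498 (vertical axis), each the mean of 2 Cy3 channels after quantile normalization. Each point is 1 gene, the solid line marks equal intensity and the dotted line 1 log2 unit less in A498. All points lie on or below the solid line, with ESPL1 on it and DLGAP5 furthest below.

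In HCT116 the members lay mostly above 0 with either strand of miR-490. With miR-490-5p 37 of 48 were above 0, against 53.4% of all genes measured. On the miR-490-3p array 41 of 48 were, against 51.8%. No member reached 1 or -1, and with 1 array each there is no test. The RefSeq mature sequences of the transfected strands, with the seed in capitals, share no seed either.
miR-490-5p: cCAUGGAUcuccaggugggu
miR-490-3p: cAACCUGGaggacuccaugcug

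HMMR was furthest from 0 with miR-490-5p, at 0.78, and lay at 0.50 with miR-490-3p. SPC25 was furthest with miR-490-3p, at 0.91, and lay at 0.30 with miR-490-5p. INCENP was high on both arrays, at 0.75 and 0.68, although it was near 0 with both GINS1 siRNAs. NUSAP1 was the lowest member with miR-490-5p, at -0.56, and lay at 0.09 with miR-490-3p, and BUB3 was the lowest with miR-490-3p, at -0.39, where its second, dimmer probe gave 0.16. INCENP, NUSAP1 and the BUB3 value on this array were picked out after their values were seen. The pair of mock channels of HCT116 differed over the members with an SD of 0.09 and by at most 0.23 (PTTG1). By role the passenger complex had the highest medians with miR-490-5p, 0.46, and the spindle and microtubule binding proteins with miR-490-3p, 0.50, and the kinesins the lowest with miR-490-3p, 0.04. These arrays share the dye orientation of all others, so a dye bias of a probe is part of each value.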

How the data were processed

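Total RNA of 4 human cancer cell lines was measured on 8 Agilent 2-colour arrays, mock in Cy3 and transfected in Cy5. Per the file headers, the authors processed the scan with Feature Extraction 11.5.1.1. The deposited intensity columns used here are the spot's mean and its local background in each channel, linear and without normalization. The log10 ratios (Cy5 over Cy3) that the authors deposited were corrected by the scanner software, and the series table repeats them (largest difference 0). This scanner log ratio, converted to log2, was used as an alternative only. Whether both arrays of a line carried the same mock extract is not given in the sources used here.

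Each array held 62976 spots, 2075 of them controls, for 58201 probes. Outlier flags removed 169 to 272 spots of an array, and 0 were saturated. Background was corrected by normexp with an offset of 50, which pulls the ratios of dim probes toward 0, and log2 ratios were normalized by loess within each array in limma 3.58.1 under R 4.3.3 (with the data.table package, version 1.17.8), with controls at weight 0. Spots of a probe were averaged. Gene names are those of the deposited annotation, and the probe with the highest mean intensity stood for a gene. Genes entered a comparison when well above background in at least 1 channel on every array used. No exon annotation was used.

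A498 minus 786-O was fitted with lmFit and eBayes on the 4 miR-139 arrays, and si-GINS1 against mock on all 8 arrays with 5 coefficients and 3 residual degrees of freedom, with Benjamini-Hochberg adjustment over all genes tested and a threshold of 0.05. The siRNA difference and the miR-490 arrays have 1 array per group and no test, and a size of 1 log2 unit was used. The p-values of A498 minus 786-O measure the spread between strands within a line. Those of the si-GINS1 fit measure the spread between the siRNAs and that between A498 and 786-O within each miR-139 strand. The miR-490 arrays, 1 per coefficient, add no spread. Tests against mock do not include the mock's own spread. The fits were tested on simulated data. Alternatives were no background correction, an offset of 10, median centring in place of loess, the scanner log ratio, the median over probes, no filter, a filter on both channels, dye bias removed, other fits and each array left out. Mock levels are Cy3 intensities after quantile normalization. Summaries used Python 3.11.15 and pandas 2.3.3, with figures from matplotlib 3.10.9.

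The members, roles, other lists and tests were chosen with earlier results of these data known. Named by rule were the 24 members with the largest and the 4 with the smallest siRNA difference, the 6 with the largest line difference (fewer than 5 passed), those called over both siRNAs, the furthest on each miR-490 array, and 3 genes in each direction per other list. Values of further members are given by role. A further renal marker of the lists is not reported here.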

Additional observations from a re-analysis of the deposited data

Results flagged for a closer look

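The medians of the 48 members lay on opposite sides of 0 with the 2 GINS1 siRNAs, 0.933 apart (0.21 against -0.72), with 1 array each and no test of the difference. In the same way 18 members had a siRNA 1 value above 0, a siRNA 2 value below 0 and a difference of at least 1. Of all genes, 2.81% had such a difference and 21.5% had such opposite sides. The share with both was not counted. The widest were SPC24 at 2.28, BIRC5 at 2.03, FOXM1 at 1.89, BUB1B at 1.76, SPC25 at 1.65, NUSAP1 at 1.63 and MYBL2 at 1.55. Then came UBE2C at 1.48, MKI67 at 1.35, TOP2A at 1.31, KIF23 at 1.25, KIF2C at 1.23, CDK1 at 1.20 and CDC20 at 1.19. The smallest of the 18 were AURKB at 1.17, CCNB2 at 1.15, CDC25C at 1.15 and ESPL1 at 1.09. Differences of this size were not tested. The mock channels of MDA-MB-231 differed by at most 0.25 over the members, in Cy3 alone and without the spread of Cy5.

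In the renal lines the medians of the members also lay on opposite sides of 0, with a difference of 0.167 between the mean medians of A498 and 786-O, which median centring did not keep for miR-139-3p in 786-O. Among the 6 members furthest apart, 4 had both A498 arrays above 0 and both 786-O arrays below 0: DLGAP5 with a difference of 0.37, CDK1 with 0.35, TOP2A with 0.34 and CENPA with 0.34. The limma adjusted p of these 4 lay between 0.712 and 0.802, over the threshold. They were picked for having both arrays of a line on the same side of 0, so that agreement adds no support. The arrays of a line are of different strands.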

How the results depend on the processing

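The median siRNA difference of the members stayed above 0 in every setting run. Median centring moved it most, to 1.11, with 31 members at or above 1, medians of 0.70 with siRNA 1 and -0.50 with siRNA 2, 11 members at or above 1 with siRNA 1, 1 at or below -1 with siRNA 2, and miR-490 medians of 0.38 (5p) and 0.50 (3p). No background correction gave a siRNA 2 median of -0.83 with 14 members at or below -1, an offset of 10 gave -0.83 and 14, the scanner log ratio gave -0.87 and 14 with a median difference of 0.95, and dye bias removal gave -0.84 and 13 with a siRNA 1 median of 0.077. In the renal lines the A498 median of 0.11 moved to 0.25 with median centring and 0.19 with the scanner log ratio, which put the difference of the lines at 0.29. Over both siRNAs the 4 members called lower became 1 with median centring, where BUB3 turned to 0.14, and 0 with the scanner log ratio, in a fit of the si-GINS1 arrays alone and with a robust prior that followed intensity. Over all genes that call split 808 lower and 745 higher, and 240 lower and 2283 higher with median centring. Leaving out 1 array gave 0 to 25 members called higher for A498 minus 786-O, and 4 to 40 lower and 1 to 13 higher for si-GINS1. The causes were not tested. Strand as a replicate block called 0 members and 13 of all genes (1 higher, 12 lower); the strands' differences correlated at 0.114 between lines over 17490 genes, so the block is given here only. In all, 134 summary values stayed within their limits and 30 did not. Part of the 134 was fixed in advance, and how many was not counted. All members passed the filters, so the filter settings could not move their medians or size counts. Dye bias removal could not move the siRNA difference. Other fits of the same ratios with every renal array kept could not move the line difference. Of the values of named members, 246 stayed the same, 70 moved, 18 weakened, 10 strengthened and 1 reversed, with the same limit. Ratios of dim probes are pulled toward 0 by the offset.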
